A study of Mus musculus with 12 samples.

Results

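The crystallin genes described here are Cryaa, Cryab, Cryba1, Cryba2, Cryba4, Crybb1, Crybb2, Crybb3, Crygs and Crygd, 10 of the 55487 genes in the table of mouse retina RNA-seq, found by exact match to their names and present once each. All 10 had a mean above 1 FPKM in at least 1 group and were among the 16471 genes tested. FPKM counts sequenced fragments relative to transcript length and to the size of the library. Poly(A) RNA of retinas, more than 3 per library, was sequenced in 12 libraries, 2 for each of 6 groups. WT PBS and WT NMDA are retinas of wild type C57BL/6J mice, given an intravitreal injection of 1 μL of PBS or of 1 μL of 40 mM NMDA, which is 40 nmol of this glutamate receptor agonist. The shPax6 PBS and shPax6 NMDA groups received the same injections after infection with AAV2.7m8 (pU6-shPax6-GFP, 2 μL) in mice of 2 months. This vector carries a short hairpin RNA against Pax6 under a U6 promoter. The study calls its delivery intravitreal in the results and subretinal in the methods that give the volume. JNK3 KO PBS and JNK3 KO NMDA are retinas of Jnk3-/- mice, which lack the stress kinase encoded by Mapk10 in all cells. Ages of the WT and JNK3 KO mice were not given in the sources used here. No group received the scramble vector, so the effects of infection and of the hairpin cannot be told apart.

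Crystallins are the abundant soluble proteins of the lens and fall into 2 families. The alpha crystallins, Cryaa and Cryab, are small heat shock proteins that bind unfolding proteins and keep them from aggregating, and Cryab is also made in glia, heart and muscle. The beta and gamma crystallins share a fold of Greek key motifs, pack densely in lens fibre cells and are long known to be transcribed at a lower level in the retina, where stress and injury change them. Pax6 and large Maf proteins are textbook regulators of crystallin promoters in the lens.

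Pax6 had 173 and 177 FPKM in WT PBS versus 94.6 and 92.8 FPKM in shPax6 PBS, a log2 difference of -0.90 (SE 0.07, adjusted p = 6.04e-05). This order was reversed after NMDA. Pax6 then stood at 67.5 and 58.7 FPKM in shPax6 retinas, above the WT values of 55.4 and 53.8 FPKM. The difference between these NMDA groups was not tested. Mapk10 had 42.8 and 50.7 FPKM in WT PBS versus 9.47 and 8.75 FPKM in JNK3 KO PBS, a log2 difference of -2.34 (SE 0.36, adjusted p = 0.0215). After NMDA, the Mapk10 values, 8.98 and 6 FPKM in WT, lay beside 6.65 and 13.8 FPKM in JNK3 KO retinas, so those groups overlapped. The summed FPKM of the 12 rod photoreceptor markers, the defining cells of this tissue, was between 24000 and 42070 in the 12 libraries. The WT NMDA libraries stood apart from the rest in their summed FPKM over all genes, 806000 and 820000 against 541000 to 577000 in the other 10 libraries. The deposited values give no read counts. Depth is therefore unknown. The precision was judged from the spread between the 2 libraries of a group, shared over the 6 groups. The labels do not say that the 2 libraries came from separate mice, so p-values measure only the spread between libraries, which may be technical.

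Promoter sequences of 9 of the 10 genes, 250 bases before to 50 bases after the start, were found in RefSeq (GRCm38.p6), and Cryab had no entry. They were searched on both strands for TGCTGA, the outer letters of the Maf recognition element, for TATAAA, the TATA box, and for TGACTCA, the AP-1 site to which Jun proteins, the substrates of JNK kinases, can bind. TGCTGA was found in 7 of the 9 promoters and in 19.5% of the 32851 mouse promoters of the same length. TATAAA was found in 4 of the 9 and in 13.6% of all promoters, and TGACTCA in 3 of the 9 and in 5.2% of all. The promoters of Crybb2 and Crygd held none of these letters, the promoter of Cryba4 held TGCTGA 3 times, and matches of the 3 motifs did not overlap. A match describes the letters of this window only. The 6 sequences below are shown because they hold all matches to TGACTCA and TATAAA and the 3 matches to TGCTGA in Cryba4. They are written 5′ to 3′ on the strand of the gene, in lower case with the matched letters in capitals, and TCAGCA in Cryba2 and Crygs is TGCTGA on the other strand.
Cryaa, chr17:31677681-31677980, plus strand: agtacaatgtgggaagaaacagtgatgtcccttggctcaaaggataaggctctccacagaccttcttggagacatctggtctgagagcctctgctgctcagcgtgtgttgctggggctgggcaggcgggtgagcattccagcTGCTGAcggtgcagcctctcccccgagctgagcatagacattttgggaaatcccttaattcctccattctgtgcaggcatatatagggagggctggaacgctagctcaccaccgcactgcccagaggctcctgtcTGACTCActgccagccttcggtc
Cryba1, chr11:77725244-77725543, minus strand: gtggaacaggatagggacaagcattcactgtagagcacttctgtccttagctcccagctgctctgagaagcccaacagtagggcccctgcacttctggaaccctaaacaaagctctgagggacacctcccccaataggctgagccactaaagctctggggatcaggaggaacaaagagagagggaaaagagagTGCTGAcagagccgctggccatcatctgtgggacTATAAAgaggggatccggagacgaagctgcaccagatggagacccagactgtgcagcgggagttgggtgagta
Cryba2, chr1:74893094-74893393, minus strand: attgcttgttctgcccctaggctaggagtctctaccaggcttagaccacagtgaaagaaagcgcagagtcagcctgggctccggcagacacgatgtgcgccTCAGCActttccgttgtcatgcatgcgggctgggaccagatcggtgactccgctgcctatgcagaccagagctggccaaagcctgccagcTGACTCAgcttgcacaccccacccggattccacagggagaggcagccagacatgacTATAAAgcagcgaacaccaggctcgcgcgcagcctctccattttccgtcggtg
Cryba4, chr5:112252469-112252768, minus strand: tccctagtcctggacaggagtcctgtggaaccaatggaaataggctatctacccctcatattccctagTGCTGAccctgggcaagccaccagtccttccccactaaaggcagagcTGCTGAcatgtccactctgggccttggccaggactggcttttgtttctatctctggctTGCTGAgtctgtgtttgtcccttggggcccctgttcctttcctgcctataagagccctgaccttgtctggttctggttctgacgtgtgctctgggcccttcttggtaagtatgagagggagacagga
Crybb1, chr5:112255570-112255869, plus strand: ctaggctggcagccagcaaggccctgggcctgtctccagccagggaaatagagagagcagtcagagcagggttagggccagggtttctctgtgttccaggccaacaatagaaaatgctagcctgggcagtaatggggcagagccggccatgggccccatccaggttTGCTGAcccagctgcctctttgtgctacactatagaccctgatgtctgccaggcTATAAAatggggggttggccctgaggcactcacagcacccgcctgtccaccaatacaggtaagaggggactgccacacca
Crygs, chr16:22811361-22811660, minus strand: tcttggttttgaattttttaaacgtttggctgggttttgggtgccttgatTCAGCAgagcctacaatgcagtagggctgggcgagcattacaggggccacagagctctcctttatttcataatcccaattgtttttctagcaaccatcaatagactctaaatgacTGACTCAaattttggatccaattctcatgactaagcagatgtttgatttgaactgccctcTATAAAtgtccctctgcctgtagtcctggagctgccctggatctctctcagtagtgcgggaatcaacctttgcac
In Cryaa the TGACTCA match began 28 bases into the transcribed part and in Crygs 85 bases before the start (position -85), counting the first transcribed base as 1. Cryba4 and Crybb1 lie next to each other on chromosome 5 and are transcribed away from each other. Crybb2 and Crybb3 lie on the same chromosome, both on the minus strand, Crybb3 from 113075839 to 113081584 and Crybb2 from 113058258 to 113070117. The other 6 genes lie on chromosomes 1, 9, 11, 16 and 17.

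With PBS, the crystallins spanned more than an order of magnitude in the WT retina. Cryab led at 109 FPKM (SD 3.85, n = 2), followed by Cryaa at 42.7, Crybb2 at 35, Cryba1 at 19.3, Crygd at 12.6, Crygs at 9.995, Crybb3 at 7.79, Cryba2 at 6.6, Cryba4 at 5.14 and Crybb1 at 4.83 FPKM. The values of the 2 libraries did not overlap between any neighbours in this order. In shPax6 PBS retinas Crybb2 stood above Cryaa, and the neighbours from Crybb3 to Crygs, at 6.08 to 5.37 FPKM, overlapped. In JNK3 KO PBS retinas Cryaa overlapped with Crybb2, as did Crygd with Crygs, and Crygs with Cryba2. After NMDA, Crybb2 stood above Cryaa in WT, at 129.8 against 76.9 FPKM, and below it in shPax6 and JNK3 KO retinas. Cryab was the highest and Crybb1 the lowest of the 10 in the mean of each of the 6 groups.

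**Figure D1:**
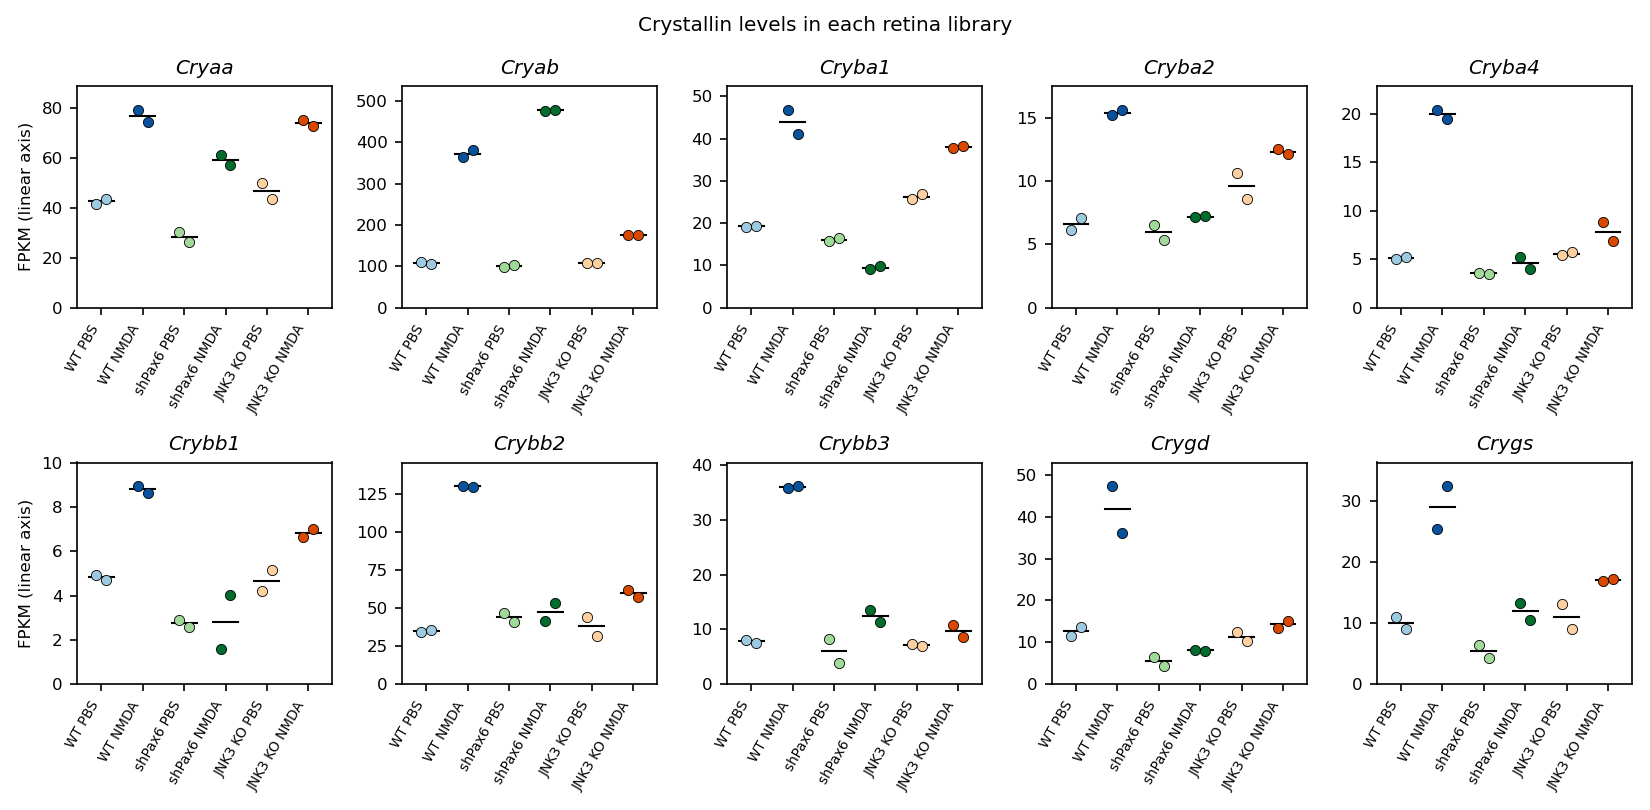
FPKM of each crystallin (linear axis from 0, one panel per gene) in the 2 libraries (points) of each of 6 groups, with the group mean as a bar. Cryab reached 477 and 479 FPKM in shPax6 NMDA, above all other libraries. All beta crystallins, Crygd and Crygs were highest in both WT NMDA libraries, and Cryaa had its highest mean in that group.

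The crystallins were higher after NMDA in many cases, with calls that differed between the 3 kinds of retina. In WT retinas 8 of the 10 rose, including all 3 acidic beta crystallins, Crybb2 and Crybb3, both gamma crystallins and Cryab. In shPax6 retinas 4 rose, Cryab, Cryaa, Crybb3 and Crygs. In JNK3 KO retinas none of the 10 passed both limits, although all 10 values were higher after NMDA. A gene was called when its Benjamini-Hochberg adjusted p from limma was under 0.05 over all genes tested and its log2 difference was beyond 1 in either direction. By the same rule 14.2% of all tested genes rose in WT, but 33.6% of the genes under 1 kb, the class of 9 of the 10 crystallins. The WT count was 5 with values rescaled to TPM and 3 after a correction for transcript length. Over all tested genes 8.64% rose in shPax6 and 2.65% were called in either direction in JNK3 KO retinas. With the adjusted p alone, 4 of the 10 crystallins rose in JNK3 KO retinas, Cryab, Cryaa, Cryba1 and Crybb2, against 4.33% of all genes. The median log2 difference of the 10 was 1.62 in WT, 0.48 in shPax6 and 0.54 in JNK3 KO retinas, beside -0.09, 0.10 and -0.01 over all tested genes.

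The summed level of the 10 genes was 252 to 253 FPKM in WT PBS versus 774 to 775 FPKM in WT NMDA. It was 212 to 225 FPKM in shPax6 PBS versus 638 to 644 FPKM in shPax6 NMDA, and 257 to 282 FPKM in JNK3 KO PBS versus 411 to 421 FPKM in JNK3 KO NMDA. In all 3 kinds of retina both NMDA totals lay above both PBS totals, but their make-up differed. The WT NMDA libraries also had the highest FPKM summed over all genes. As a share of that sum, the 10 crystallins took 0.0458% to 0.0468% in WT PBS and 0.0945% to 0.096% in WT NMDA, and 0.0383% to 0.0402% in shPax6 PBS and 0.111% to 0.112% in shPax6 NMDA, so by share shPax6 NMDA lay above WT NMDA. In JNK3 KO retinas the share was 0.0454% to 0.0488% with PBS and 0.0725% to 0.0751% with NMDA. Cryab gave 42.1% to 44% of the total in WT PBS and 47.1% to 49.2% in WT NMDA, and 43.7% to 49.1% in shPax6 PBS against 74.4% to 74.7% in shPax6 NMDA. The 6 beta crystallins together were at 77.7 to 79.6 FPKM in WT PBS versus 251 to 257 FPKM in WT NMDA. In shPax6 they were at 72.8 to 83.7 FPKM with PBS versus 78.4 to 89.3 FPKM with NMDA, groups that overlapped.

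**Figure D2:**
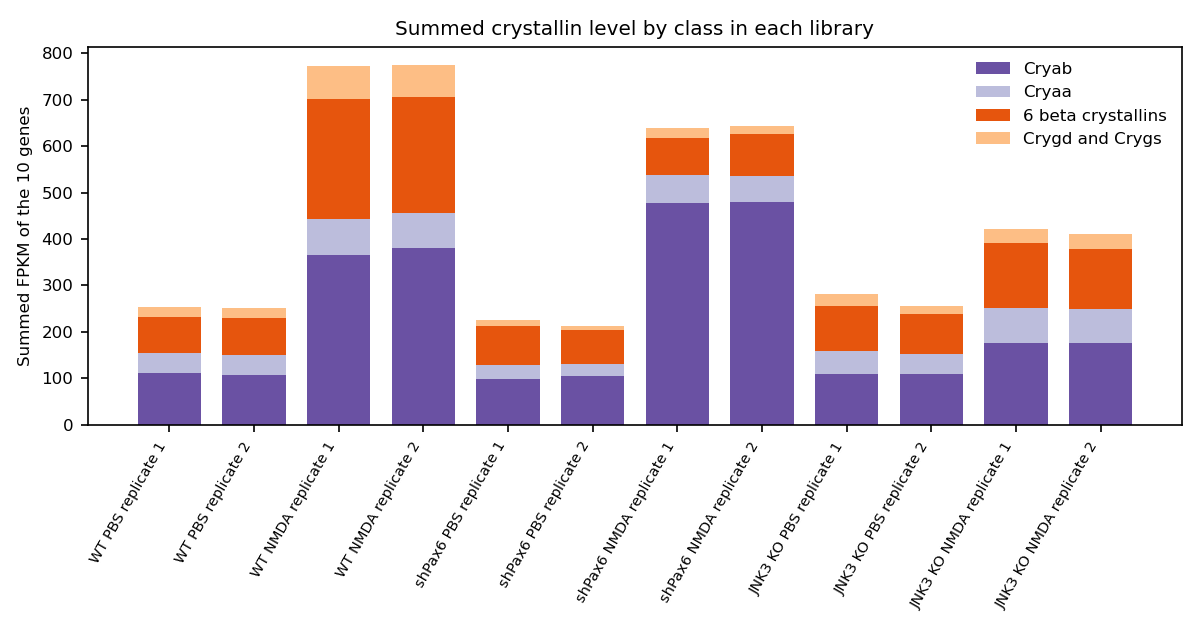
Summed FPKM of the 10 crystallins (bars from 0) in each of the 12 libraries, divided into Cryab, Cryaa, the 6 beta crystallins, and Crygd with Crygs. In shPax6 NMDA the beta crystallins stayed at 78.4 to 89.3 FPKM and Cryab made up 74.4% to 74.7% of the sum.

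Cryab, the alpha B crystallin, was listed at 112 and 106 FPKM in WT PBS versus 364 and 381 FPKM in WT NMDA. In shPax6 retinas it was at 98.3 and 104 FPKM with PBS versus 477 and 479 FPKM with NMDA. In JNK3 KO retinas it was at 109 and 109 FPKM with PBS versus 177 and 175 FPKM with NMDA. In each case both NMDA libraries lay above both PBS libraries, and the 3 NMDA groups did not overlap with each other. The log2 difference was 1.78 in WT (3.42-fold, SE 0.05, adjusted p = 2.29e-08), 2.24 in shPax6 (4.72-fold, SE 0.05, adjusted p = 2.79e-08) and 0.69 in JNK3 KO retinas (1.62-fold, SE 0.05, adjusted p = 6.8e-05). All fold changes are on the scale of FPKM + 0.1, on which limma was run.

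Cryaa, the alpha A crystallin, whose expression is largely restricted to the lens, was listed at 41.7 and 43.7 FPKM in WT PBS versus 79.3 and 74.5 FPKM in WT NMDA. It was at 30.3 and 26.2 FPKM in shPax6 PBS versus 61.3 and 57.1 FPKM in shPax6 NMDA, with 50 and 43.4 FPKM in JNK3 KO PBS versus 75.1 and 73 FPKM in JNK3 KO NMDA. The NMDA libraries lay above the PBS libraries in all 3 kinds of retina. The log2 difference was 0.85 in WT (SE 0.09, adjusted p = 4.41e-05), below the fold limit, 1.07 in shPax6 (SE 0.09, adjusted p = 4.64e-05) and 0.67 in JNK3 KO retinas (SE 0.09, adjusted p = 0.00279). Without shPax6 PBS replicate 2 the value in shPax6 was 0.96 and was no longer called. In shPax6 NMDA replicate 1, 14.9 FPKM was assigned to a retained-intron transcript that was at 0 in every other library. The main transcript was at 25 and 46.4 FPKM in shPax6 NMDA. By limma over transcripts its log2 difference in shPax6 was 0.61 (adjusted p = 0.2), which was not called. For the longest transcript, of 4 exons, it was 2.82 (adjusted p = 0.0067).

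Among the acidic beta crystallins, Cryba1 encodes the A3 and A1 chains and is also made by retinal astrocytes. Of the 10 genes it alone had responses of opposite direction with an adjusted p under 0.05. Crybb1 also had a negative value in shPax6, -0.10, which did not pass the test. Cryba1 was listed at 19.2 and 19.4 FPKM in WT PBS versus 46.8 and 41 FPKM in WT NMDA. In shPax6 retinas it was at 15.7 and 16.5 FPKM with PBS versus 9.2 and 9.73 FPKM with NMDA. In JNK3 KO retinas it was at 25.7 and 26.9 FPKM with PBS versus 37.8 and 38.3 FPKM with NMDA. The NMDA libraries were above the PBS libraries in WT and JNK3 KO and below them in shPax6 retinas. The log2 difference was 1.18 in WT (SE 0.09, adjusted p = 3.09e-06) and 0.53 in JNK3 KO retinas (SE 0.09, adjusted p = 0.00565). In shPax6 it was -0.76 (SE 0.09, adjusted p = 0.000212), which passed the p but not the fold limit.

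Cryba2, another acidic chain, was listed at 6.14 and 7.06 FPKM in WT PBS, 15.2 and 15.7 FPKM in WT NMDA, 6.57 and 5.34 FPKM in shPax6 PBS versus 7.13 and 7.26 FPKM in shPax6 NMDA. It was at 10.6 and 8.62 FPKM in JNK3 KO PBS versus 12.5 and 12.1 FPKM in JNK3 KO NMDA. It rose in WT by a log2 difference of 1.22 (SE 0.15, adjusted p = 8.43e-05), while the values in shPax6 and JNK3 KO retinas were 0.28 and 0.36 (adjusted p = 0.194 and 0.171). The 95% interval of the shPax6 value ran from -0.06 to 0.61.

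Cryba4 was listed at 5.04 and 5.24 FPKM in WT PBS versus 20.4 and 19.5 FPKM in WT NMDA. It was at 3.61 and 3.51 FPKM in shPax6 PBS versus 5.27 and 3.98 FPKM in shPax6 NMDA, with 5.45 and 5.7 FPKM in JNK3 KO PBS versus 8.88 and 6.83 FPKM in JNK3 KO NMDA. Only the WT difference passed the test, at 1.94 (3.83-fold, SE 0.17, adjusted p = 1.18e-05). The values in shPax6 and JNK3 KO were 0.355 (SE 0.17, adjusted p = 0.158) and 0.48 (SE 0.17, adjusted p = 0.126).

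Of the basic beta crystallins, Crybb2 had the highest level. It was listed at 34.2 and 35.8 FPKM in WT PBS versus 129.95 and 129.62 FPKM in WT NMDA, and in shPax6 at 46.6 and 41 FPKM with PBS versus 41.7 and 53 FPKM with NMDA. In JNK3 KO it was at 44.1 and 31.7 FPKM with PBS versus 62.1 and 57.1 FPKM with NMDA. The shPax6 groups overlapped and the others did not. The log2 difference was 1.89 in WT (3.7-fold, SE 0.16, adjusted p = 7.54e-06), 0.11 in shPax6 (95% interval -0.25 to 0.46) and 0.67 in JNK3 KO retinas (SE 0.16, adjusted p = 0.028).

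Crybb3 had the largest rise of the 10 in WT, with 8.13 and 7.45 FPKM after PBS against 35.8 and 36.1 FPKM after NMDA, a log2 difference of 2.19 (4.57-fold, SE 0.29, adjusted p = 0.000142). In shPax6 retinas it was at 8.28 and 3.88 FPKM with PBS versus 13.5 and 11.3 FPKM with NMDA, a log2 difference of 1.11 (SE 0.29, adjusted p = 0.0185). The 2 shPax6 PBS libraries were far apart, and without replicate 2 of that group the value was 0.57. It was also not called without shPax6 NMDA replicate 1 (0.97) or replicate 2 (1.24). In JNK3 KO retinas it was at 7.39 and 6.95 FPKM with PBS versus 10.7 and 8.59 FPKM with NMDA, a log2 difference of 0.41 (SE 0.29, adjusted p = 0.439).

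Crybb1 was the lowest and least precise. It was listed at 4.95 and 4.7 FPKM in WT PBS, 8.95 and 8.66 FPKM in WT NMDA, 2.92 and 2.57 FPKM in shPax6 PBS, 1.59 and 4.04 FPKM in shPax6 NMDA, 4.23 and 5.14 FPKM in JNK3 KO PBS versus 6.66 and 7.02 FPKM in JNK3 KO NMDA. None of the 3 differences passed the test, at 0.85 (SE 0.34, adjusted p = 0.0568), -0.10 (SE 0.34) and 0.54 (SE 0.34).

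Of the gamma crystallins, Crygs, which unlike the other gamma genes is made through adult life in the lens, was listed at 10.9 and 9.06 FPKM in WT PBS versus 25.5 and 32.4 FPKM in WT NMDA. In shPax6 it was at 6.39 and 4.35 FPKM with PBS versus 13.3 and 10.5 FPKM with NMDA, and in JNK3 KO at 13.1 and 9.01 FPKM with PBS versus 17 and 17.3 FPKM with NMDA. The NMDA libraries were above the PBS libraries throughout. The log2 difference was 1.52 in WT (SE 0.24, adjusted p = 0.000428), 1.15 in shPax6 (SE 0.24, adjusted p = 0.00615) and 0.65 in JNK3 KO retinas (SE 0.24, adjusted p = 0.126), and the shPax6 value was 0.88 without shPax6 PBS replicate 2 and 0.98 without shPax6 NMDA replicate 1, neither of which was called.

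Crygd, a lens fibre gamma crystallin, was listed at 11.5 and 13.7 FPKM in WT PBS versus 47.3 and 36.2 FPKM in WT NMDA, a log2 difference of 1.71 (SE 0.20, adjusted p = 6.8e-05). It was at 6.44 and 4.4 FPKM in shPax6 PBS versus 8.26 and 7.98 FPKM in shPax6 NMDA, with 12.4 and 10.3 FPKM in JNK3 KO PBS versus 13.4 and 15.1 FPKM in JNK3 KO NMDA. The differences in these retinas, 0.60 and 0.33, did not pass the test (adjusted p = 0.0511 and 0.366). Crygd belongs to a cluster of near-identical gamma genes, so the division of reads among them is uncertain.

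**Figure D3:**
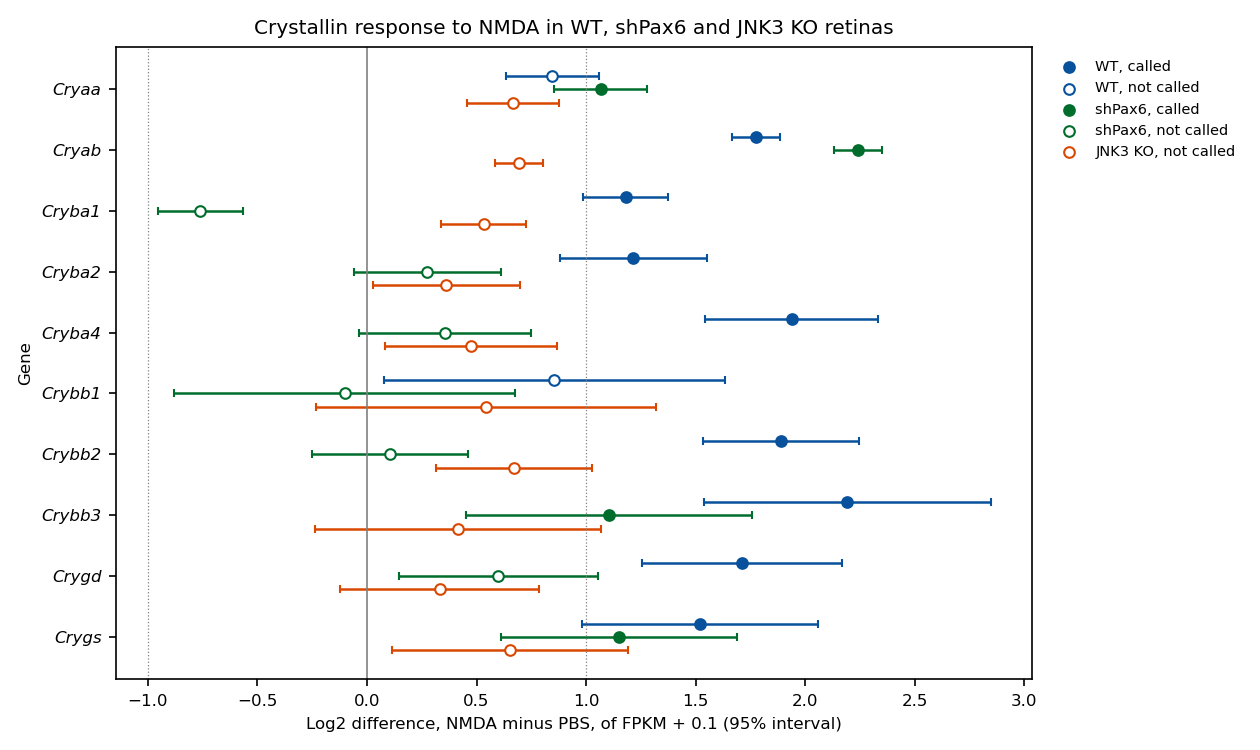
Log2 difference of FPKM + 0.1 between NMDA and PBS for each crystallin, with 95% intervals, in WT, shPax6 and JNK3 KO retinas; filled points were called and dotted lines mark the fold limit. Cryab lies at 1.78, 2.24 and 0.69, and Cryba1 at 1.18, -0.76 and 0.53.

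Whether the responses differed was tested directly as a difference of differences. Both tests use the WT libraries and so are not independent of each other. The response in WT exceeded that in shPax6 retinas for 4 of the 10 crystallins, against 10.3% of all tested genes and 23.87% of those under 1 kb. These were Cryba1 (1.94, SE 0.12, adjusted p = 4.69e-06), Crybb2 (1.78, SE 0.22, adjusted p = 0.000206), Cryba4 (1.58, SE 0.25, adjusted p = 0.000707) and Crygd (1.11, SE 0.28, adjusted p = 0.0102). Cryba2, at 0.94 (SE 0.21, adjusted p = 0.00501), was under the fold limit. For Cryab the difference had the opposite sign, -0.465 (SE 0.07, adjusted p = 0.00049), that is a larger rise in shPax6 than in WT, also under the fold limit. For Cryaa and Crygs the differences were -0.22 (95% interval -0.52 to 0.08) and 0.37 (-0.39 to 1.13), and Crybb1 and Crybb3 did not pass either. The value for Crygd was 0.99 without WT PBS replicate 1, 0.92 without WT NMDA replicate 1 and 0.84 without shPax6 PBS replicate 1, and was then not called. Crybb3 was called, at 1.62, without shPax6 PBS replicate 2, as was Cryba2, at 1.09. Cryba2 was also called, at 1.04, without WT PBS replicate 2, and Crybb1, at 1.60, without shPax6 NMDA replicate 2.

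The response in WT exceeded that in JNK3 KO retinas for 5 of the 10, against 15.5% of all tested genes and 33.15% of those under 1 kb. These were Crybb3 (1.78, SE 0.41, adjusted p = 0.00533), Cryba4 (1.46, SE 0.25, adjusted p = 0.000899), Crygd (1.38, SE 0.28, adjusted p = 0.00296), Crybb2 (1.22, SE 0.22, adjusted p = 0.00149) and Cryab (1.08, SE 0.07, adjusted p = 2.65e-06). Cryba2 and Cryba1 passed the p but not the fold limit, at 0.85 and 0.65. Cryaa, Crybb1 and Crygs did not pass (0.18, 0.31 and 0.87). Without JNK3 KO PBS replicate 1 the value for Crybb2 was 0.98 and was not called. Without JNK3 KO PBS replicate 2 the count was 7, with Crygs at 1.14 and Cryba2 at 1.00 called as well. After the length correction the count was 0, and with TPM it was 1.

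With PBS alone, 1 of the 10 differed between shPax6 and WT retinas. Crygd was lower in shPax6, by a log2 difference of -1.22 (SE 0.20, adjusted p = 0.00364), and 3.9% of all tested genes were lower by the same rule. Without shPax6 PBS replicate 2 this value was -0.95 and was not called. Crygs and Cryaa had an adjusted p under 0.05 with smaller differences, -0.90 and -0.60 (adjusted p = 0.0321 and 0.00284). Cryab was close to its WT level, with a difference of -0.11 (95% interval -0.21 to 0.00). Between JNK3 KO and WT retinas with PBS none of the 10 was called, against 0.231% of all tested genes, and with the adjusted p alone Cryba1 was higher in JNK3 KO, by 0.44 (SE 0.09, adjusted p = 0.0436), as were 1.1% of all tested genes. Over the alternatives this adjusted p ranged from 0.0355 to 0.319, and it was 0.0736 with the replicate block, 0.0929 with TPM and 0.254 with the length correction. It was 0.173 to 0.268 when any of the 4 PBS libraries compared was left out. The interval for Cryab was -0.11 to 0.11.

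The crystallin transcripts are short, with a main transcript of 613 to 1254 bases, 9 of them under 1 kb, and gene length moved with the WT response over the whole table. In WT, the 3448 tested genes under 1 kb had a median log2 difference of 0.84 and 33.6% were called higher, whereas the 3905 genes over 4 kb had a median of -1.07 and 1.15% were called higher. In shPax6 retinas the medians of these classes were 0.19 and -0.04, and in JNK3 KO retinas -0.10 and 0.14. Each library was therefore also corrected for its own trend on length. In WT the corrected log2 differences were 0.92 for Cryab (adjusted p = 3.55e-05), 0.07 for Cryaa, 0.33 for Cryba1, 0.37 for Cryba2 (adjusted p = 0.0515), 1.08 for Cryba4, 1.05 for Crybb2, 1.34 for Crybb3, 0.92 for Crygd and 0.67 for Crygs, and Crybb1 was at 0.00. Cryba4, Crybb2 and Crybb3 passed both limits, 3 in place of 8, against 6.95% of all genes, and 7 of the 10 passed the adjusted p alone with a positive value, against 20.8% of all genes. In shPax6, 1 of the 4 rises was still called after the correction, Cryab at 2.01 (adjusted p = 1.37e-06). Cryaa (0.92), Crybb3 (0.87) and Crygs (0.93) were under the fold limit, with adjusted p = 0.000114, 0.0491 and 0.02. Cryba1, at -1.02 (adjusted p = 0.000123), was then called as a fall.

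The corrected difference between the WT and shPax6 responses was -1.08 for Cryab, called as a larger rise in shPax6, and 1.35 for Cryba1 and 1.23 for Crybb2, which were still called. For Cryaa the corrected value was -0.85 (adjusted p = 0.00094), under the fold limit, beside -0.22 before the correction. That Cryaa value was -0.74 with TPM and -0.59 with quantile normalization. None of the 10 differences between the WT and JNK3 KO responses was called after the correction, and Cryab was at 0.11 there. Rescaling to TPM, the FPKM of a gene as a share of the library's sum, moved the median of all genes in WT to -0.66 and gave Cryab 1.2, Crybb3 1.63 and Cryaa 0.27 in WT. The part of length in the crystallin differences between the groups was not tested further.

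**Figure D4:**
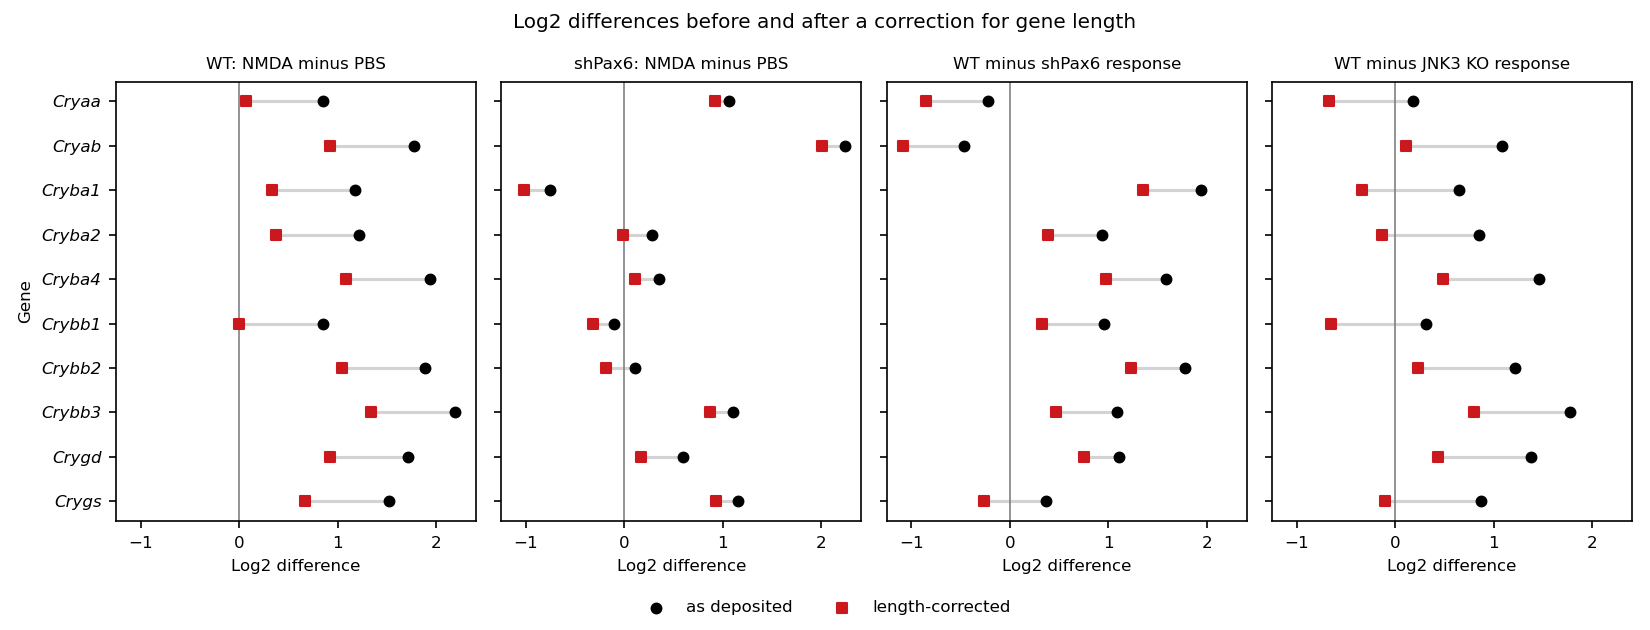
Log2 differences of the 10 crystallins as deposited (black circles) and after the length correction (red squares), for the response in WT, the response in shPax6 and the differences of the WT response from the other responses. In WT Cryab moved from 1.78 to 0.92, and in shPax6 from 2.24 to 2.01.

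Other genes of lens fibres and lens epithelium were at low levels, which overlapped with those of the lowest crystallins. Of 13 lens genes other than crystallins, 6 had a group mean above 1 FPKM, and the highest value of any of them in any library was 5.08 FPKM (Cpm in shPax6 PBS). Mip, the main membrane protein of lens fibres, was at most at 0.57 FPKM in any library, Lim2 at 0.32, Gja3, a fibre connexin, at 0.12, Birc7 at 0.2, Dnase2b, the nuclease of fibre denucleation, at 0.07, and Foxe3, a regulator of the lens epithelium, at 0.06 FPKM. Lctl had a single library at 1.38 FPKM and the rest at or under 0.43. Their summed level was 8.34 to 9.83 FPKM in WT PBS versus 8.92 to 13.5 in WT NMDA, 8.45 to 13.7 in shPax6 PBS and 4.21 to 8.13 in shPax6 NMDA, and 9.98 to 12.4 in JNK3 KO PBS and 8.89 to 10.2 in JNK3 KO NMDA. Of the 6 tested, Lgsn rose in WT (log2 difference 1.24) and Cpm fell (-1.13), Bfsp1 and Hsf4 fell in shPax6 (-2.28 and -1.88), and Hsf4 fell in JNK3 KO retinas (-1.38). Bfsp2, a filament protein of fibres, and Grifin did not pass the test in any of the 3. The median log2 difference of the 6 was 0.81 in WT, -0.55 in shPax6 and -0.22 in JNK3 KO retinas. In WT Bfsp1, Bfsp2 and Grifin had values of 1.00, 1.43 and 0.61, which did not pass the test. In the study the lens was removed when retinas were excised for staining, and the dissection for RNA was not given in the sources used here. Whether lens material added to the crystallin values was not tested beyond these levels.

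**Figure D5:**
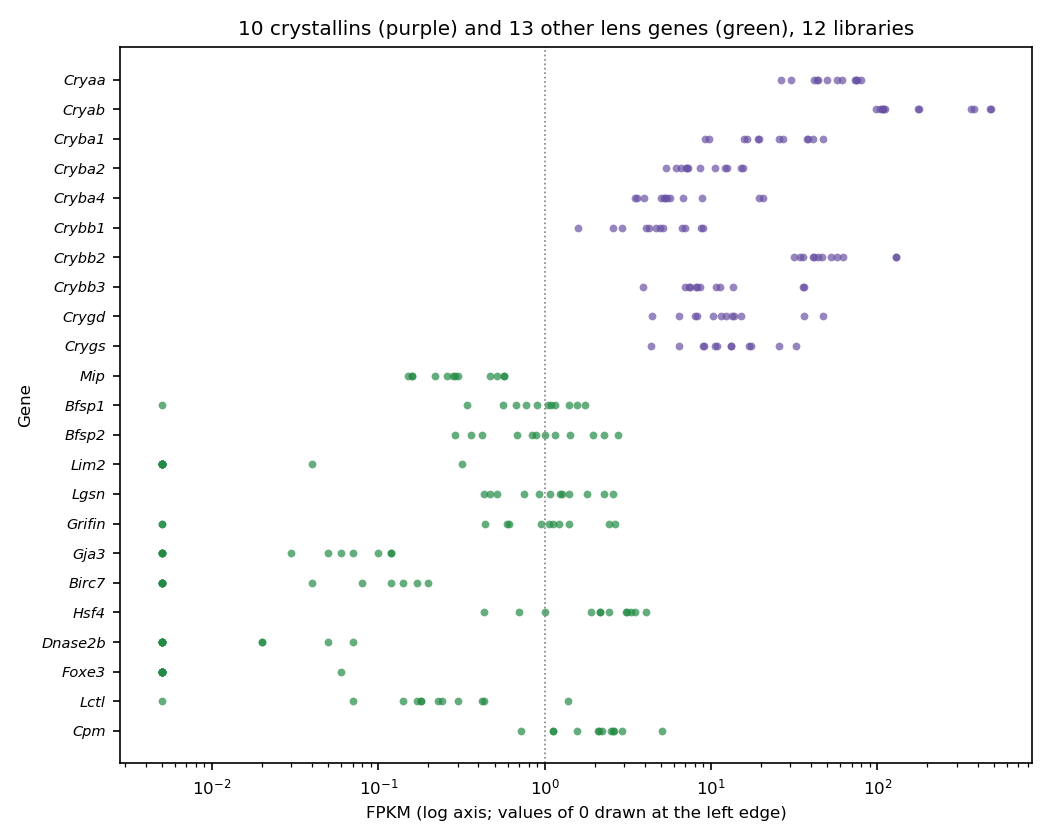
FPKM in each of the 12 libraries (points, log axis, 0 drawn at the left edge) of the 10 crystallins in purple and of 13 other lens genes in green, with a dotted line at 1 FPKM. Every crystallin value was at or above 1.59 FPKM, and Mip did not exceed 0.57 FPKM.

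A separate list held 12 further genes with a crystallin name. Of the 9 tested, Crygb and Crygc rose in WT and Crybg3 fell, and Crym alone rose in shPax6 retinas. The gamma genes Crygb and Crygc went from 19.8 and 16.2 FPKM to 60.5 and 53.6 FPKM, and from 9.67 and 10.6 FPKM to 21.3 and 40.6 FPKM, in WT (log2 differences 1.66 and 1.53). Cryge was listed at 8.35 and 8.57 FPKM in WT PBS versus 0 and 0.1 FPKM in shPax6 PBS, and Crygf at 2.06 and 3.13 FPKM against 0 and 0.43 FPKM, and both were called lower in shPax6 (adjusted p = 0.000153 and 0.00703). In JNK3 KO PBS Cryge was at 4.37 and 6.47 FPKM. Cryge and Crygf are near-identical copies, with the same limit as Crygd. Crym, a thyroid hormone binding protein that serves as a crystallin in marsupials, was at 168 and 175 FPKM in WT PBS, 311 and 303 in WT NMDA, 137 and 119 in shPax6 PBS and 337 and 308 FPKM in shPax6 NMDA, with log2 differences of 0.84 in WT and 1.33 in shPax6. Crybg3 fell in WT by 1.46 on the log2 scale. Cryga, Cryl1 and Cryz did not pass the test in any response (highest values 2.01, 4.85 and 15.3 FPKM), and Crygn, Crybg1 and Crybg2 stayed under 1 FPKM in every group mean. The list's median log2 difference was 0.84 in WT, 0.27 in shPax6 and 0.33 in JNK3 KO retinas.

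The alpha crystallins belong to the small heat shock proteins. Of a list of 8 other genes with an Hspb symbol 6 were tested, among them Hspb11, a cilium protein despite its name. In WT 1 rose, in shPax6 4 rose (3 of 5 without Hspb11), and in JNK3 KO retinas none was called. Hspb1, a stress-induced chaperone of the same family, was listed at 7.11 and 5.42 FPKM in WT PBS versus 16.6 and 12.4 FPKM in WT NMDA. In shPax6 it was at 7.44 and 5.25 FPKM with PBS versus 76.9 and 61.2 FPKM with NMDA, and in JNK3 KO at 5.34 and 4.68 FPKM with PBS versus 5.09 and 4.01 FPKM with NMDA. Its log2 difference was 1.19, 3.43 and -0.14. Hspb2, which lies head to head with Cryab, was at 0 and 0.23 FPKM in shPax6 PBS and rose to 1.86 and 2.42 FPKM in shPax6 NMDA. Hspb8 and Hspb11 rose in shPax6 by log2 differences of 1.74 and 1.21. Hspb8 was at 2.1 and 1.99 FPKM in shPax6 PBS and 7.68 and 6.48 FPKM in shPax6 NMDA, beside 7.09 and 6.96 FPKM in WT PBS. With PBS 3 of the 6, Hspb2 and Hspb8 among them, were called lower in shPax6 than in WT, against 3.9% of all tested genes. The abundant Hspb6, at 113 and 118 FPKM in WT PBS versus 196 and 202 FPKM in WT NMDA, was under the fold limit (0.79). The list's median, Hspb11 included, was 0.97 in WT, 1.47 in shPax6 and -0.60 in JNK3 KO retinas. Of 12 inducible chaperones, 2 rose and 2 fell in WT, 3 rose in shPax6 and 1 rose in JNK3 KO retinas, with medians of 0.17, 0.48 and 0.09. In WT the mitochondrial co-chaperone Hspe1 rose (1.54), and Chordc1 and Dnajb4 fell (-1.88 and -1.22). Hspe1 is under 1 kb and Chordc1 over 4 kb, classes of which 33.6% rose and 52.1% fell in WT.

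Of 13 regulators of crystallin genes 10 were tested, and 4 fell in WT with none rising, where 20.9% of all tested genes and 52.1% of those over 4 kb fell. Prox1 and Crebbp are over 4 kb. Prox1, a factor of lens fibre differentiation, fell from 24.2 and 23.9 FPKM to 5.57 and 6.56 FPKM (log2 difference -1.97), Pax6 fell by 1.68 and the coactivator Crebbp by 1.14 on the log2 scale. None was called in shPax6 or JNK3 KO retinas after NMDA, and the list's median was -0.89, 0.12 and 0.13 in WT, shPax6 and JNK3 KO retinas.

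Cell type markers moved with the groups as follows, and their part in the crystallin differences was not tested. Of the 16471 tested genes, 2347 rose and 3441 fell in WT, and 1423 rose and 813 fell in shPax6 retinas. In JNK3 KO retinas 128 rose and 308 fell, and with PBS 643 were lower in shPax6 than in WT. The marker values were not corrected for length. Most of the Müller glia markers that fell in WT, Aqp4 and Abca8a among them, are over 4 kb, as is C3. Of that class 52.1% fell in WT, against 20.9% of all tested genes. In bulk tissue, fewer cells of a type and less RNA per cell cannot be told apart. Of 12 RGC (retinal ganglion cell) markers 8 fell in WT, 8 in shPax6 and 7 in JNK3 KO retinas, and 7 were already lower in shPax6 PBS than in WT PBS; Slc17a6, Pou4f2 and Nefl fell in WT (log2 differences -2.96, -2.72 and -2.60). Of 12 Müller glia markers 6 fell in WT (Aqp4, Abca8a and Dkk3 at -2.74, -1.97 and -1.55), and in shPax6 1 rose and 1 fell, and in JNK3 KO retinas 1 rose. Their summed level was 711 FPKM in WT PBS versus 406 to 409 FPKM in WT NMDA, against 977 to 988 and 780 to 814 FPKM in shPax6 and 790 and 697 to 716 FPKM in JNK3 KO retinas. Of 16 genes of reactive gliosis 5 rose and 2 fell in WT, 11 rose in shPax6, and 2 rose and 5 fell in JNK3 KO retinas, with medians of -0.01, 1.49 and -0.01. In WT Lif, Vim and C3 changed by 1.93, 1.72 and -1.71.

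Of 12 microglia and macrophage markers 2 rose and 4 fell in WT, 7 rose in shPax6 and 4 fell in JNK3 KO retinas. Cd68, a lysosomal protein of phagocytes, was at 7.25 and 8.17 FPKM in WT PBS versus 33.6 and 35.4 FPKM in WT NMDA, 4.44 and 5.99 FPKM in shPax6 PBS versus 68.9 and 73.2 FPKM in shPax6 NMDA, and 7.78 and 8.37 FPKM in JNK3 KO PBS versus 15.4 and 14.9 FPKM in JNK3 KO NMDA. Aif1 rose and P2ry12 fell in WT (1.80 and -1.86). Of 7 tested neutrophil markers 5 rose in WT and 5 in shPax6, and 4 fell in JNK3 KO retinas. Their summed level was 212 to 235 FPKM in WT PBS, 1952 to 1988 FPKM in WT NMDA, 5.16 to 6.55 FPKM in shPax6 PBS versus 66.4 to 73 FPKM in shPax6 NMDA. It was 156 to 169.7 FPKM in JNK3 KO PBS versus 13.1 to 14.2 FPKM in JNK3 KO NMDA. Retnlg and S100a9 rose in WT by log2 differences of 5.58 and 3.55, and Ngp, at 0 and 0.07 FPKM with PBS, rose to 4.58 and 1.83 FPKM. Of the 12 rod markers 2 rose (Gngt1 and Pde6g) and 1 fell (Rp1) in WT, 1 fell in shPax6 and none was called in JNK3 KO retinas. Pde6g is under 1 kb, a class of which 33.6% rose in WT. Gngt1 is in the class of 1 to 2 kb, of which 24.2% rose in WT, and Rp1 is over 4 kb, where 52.1% fell. Of 6 tested RPE (retinal pigment epithelium) genes 1 fell in WT (Rpe65, -1.59) and 4 in shPax6 retinas, and of 2 tested cornea and surface epithelium genes 1 (Pkp1, -1.45 in WT) fell in WT and in shPax6. Krt12, the defining keratin of the cornea, was at most at 0.32 FPKM in any library.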

How the data were processed

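Per the submitters' processing notes the authors used STAR 2.7.1a, RSEM 1.3.3, edgeR 3.36.0 and R 4.1.0 with the mouse build GRCm38.p6. The values deposited by the authors are FPKM, in a gene table and a transcript table, from paired reads of 101 bases. Read counts were not analysed here, so the depth of a library is unknown and the count test of the study's methods was not run. All 12 libraries, 2 in each of 6 groups, entered a single fit of log2(FPKM + 0.1) with limma 3.58.1 (R 4.3.3, the package data.table, version 1.17.8), with a mean for each group, a spread shared over groups (6 residual degrees of freedom) and an intensity trend. The pseudocount of 0.1 understates fold changes of low genes. Genes with a group mean above 1 FPKM were tested, 16471 of 55487, and p-values were adjusted over all of them by Benjamini-Hochberg. Of the 55487 genes, 55227 matched GENCODE M21, which gave positions and spliced lengths, and the length correction subtracted a lowess trend (span 0.3) from each library. Figures and sums were made with Python 3.11.15, pandas 2.3.3 and matplotlib 3.10.9.

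The members and gene lists were chosen with earlier results of these data known. Named genes were all 10 members, the 12 other crystallins, up to 3 genes of each further list with the largest called change after NMDA in WT, lens genes with a group mean above 1 FPKM, Pax6 and Mapk10, and the 5 genes most like the members or Cryab. Of these, 1 gene like Cryab is not reported here, nor is 1 further lens gene, which was left out of the list of 13. Other genes named for their levels, namely the remaining lens genes, Krt12, Hspb2, Hspb6, Hspb8 and Hspb11, were chosen after their values were seen. Alternatives were other pseudocounts, filters, scalings and spreads, a replicate block, length correction, the transcript table, other limits and leaving out each library.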

Additional observations from a re-analysis of the deposited data

Results flagged for a closer look

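A test of the difference between 2 responses to NMDA, that in WT minus that in another kind of retina, singled out 9 values. Both sets use the same WT libraries. Against shPax6 retinas the log2 differences were 1.94 for Cryba1, 1.58 for Cryba4, 1.78 for Crybb2 and 1.11 for Crygd. Against JNK3 KO retinas they were 1.08 for Cryab, 1.46 for Cryba4, 1.22 for Crybb2, 1.78 for Crybb3 and 1.38 for Crygd. Cryba4, Crybb2 and Crygd were thus singled out against both. After the length correction Cryba1 and Crybb2 were still called against shPax6 retinas, at 1.35 and 1.23, and none was called against JNK3 KO retinas.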

How the results depend on the processing

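The number of crystallins called after NMDA in WT, 8, was 5 with TPM and 3 with the length correction or with a replicate block and length correction, and 8 to 8 when each library was left out. In shPax6 the number, 4, was 2 with no filter on low values, with 75th-percentile scaling and with the spread of the compared groups alone, also 2 with the length correction, with or without the replicate block, of which 1 (Cryab) rose and 1 (Cryba1) fell, and 1 with quantile normalization. It was 1 to 4 over left-out libraries, with 1 (Cryab) without shPax6 PBS replicate 2 and 2 (Cryab and Cryaa) without shPax6 NMDA replicate 1. In JNK3 KO retinas the 0 became 4 with no limit on the log2 difference and 5 when the length correction was added, a setting chosen after seeing the data, and 0 to 0 over left-out libraries. For shPax6 against WT with PBS the 1 became 0 with no filter or with the spread of the compared groups alone, 2 with the transcript table, 3 with no limit and 5 with length correction and no limit, and 0 to 2 over left-out libraries, with 0 without shPax6 PBS replicate 2 and 2 without replicate 1. For JNK3 KO against WT with PBS the 0 became 1 with no limit. For the response difference of WT and shPax6 the 4 became 8 with quantile normalization, and was 3 to 6 over left-out libraries. For that of WT and JNK3 KO the 5 became 1 with TPM or with length correction and no limit, 0 with the length correction with or without the block, and 2 with the transcript table, and was 4 to 7 over left-out libraries. Cryaa in that comparison turned from 0.18 to -0.67 with the length correction (adjusted p = 0.00273). It was -0.41 with TPM (adjusted p = 0.0197) and -0.40 with quantile normalization (adjusted p = 0.0267). These values were under the fold limit, and Cryaa was the 1 called with length correction and no limit. Beyond the settings' own construction the cause was not tested. Of the alternative counts, those over left-out libraries set aside, 89 stayed within 1.5 times the reported ones and 23 did not. This comparison took no account of direction. The calls for the response difference of WT and shPax6 were not all in 1 direction. With quantile normalization 7 of the 8 were larger responses in WT, and 1, Cryab at -1.12, was a larger rise in shPax6. With the length correction the count was 3, of which 2 were larger in WT and 1, Cryab at -1.08, larger in shPax6.

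Same-numbered libraries showed no common shift, with deviations from group means that correlated between -0.097 and 0.086. The labels do not say whether these libraries were paired, and such correlations cannot decide it. With the replicate number as a block the counts were 8, 4 and 0 after NMDA in WT, shPax6 and JNK3 KO, 1 and 0 with PBS, and 5 and 5 for the response differences.

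Scaling changed how calls over all genes divided into higher and lower. In WT these were 2347 and 3441, and 910 and 5888 with TPM. In shPax6 they were 1423 and 813, and 1099 and 1124 with quantile normalization. For shPax6 against WT with PBS they were 86 and 643, and 160 and 473 with quantile normalization, and for JNK3 KO against WT with PBS 17 and 21, and 14 and 11 with the length correction. For the response difference of WT and shPax6 they were 1693 and 3571, 671 and 5929 with TPM and 1747 and 2281 with quantile normalization, and for that of WT and JNK3 KO 2557 and 3308, and 1132 and 5408 with TPM. With 2 libraries per group and no read counts, small differences could be missed. For Crybb1 the SE of 0.34 came from a spread shared over the groups, with the widest pair in shPax6 NMDA, at 1.59 and 4.04 FPKM. Its WT value of 0.85 was also under the fold limit.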

Other observations

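Over the 12 libraries, the protein-coding genes outside the crystallins whose log2 level followed the mean z-score of the 10 members most closely were Srm (Pearson r = 0.991), which encodes spermidine synthase, Tubb5 (0.982), Nme2 (0.981), Eef2 (0.976) and Odc1 (0.976), which encodes ornithine decarboxylase. Srm was at 22 and 22.5 FPKM in WT PBS, 72.6 and 78.2 FPKM in WT NMDA and 24 and 21.8 FPKM in shPax6 NMDA. Among the genes closest to Cryab were Atp6v0e (0.989), a subunit of the proton pump of lysosomes, Nupr1 (0.984), Cd68 (0.984) and Cd47 (0.979). Nupr1, a stress-induced nuclear protein, was at 53.6 and 57.4 FPKM in WT PBS, 156 and 172 FPKM in WT NMDA and 176 and 177 FPKM in shPax6 NMDA. Among the members, r with their own mean was 0.964 for Cryba4 and 0.58 for Cryab. These values describe the likeness of libraries that share groups, and no p is given.

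In the transcript table, the main transcript held 81.5% to 97.9% of the summed FPKM of Cryab in each library. For Cryaa, the transcript of 3 exons held 40.8% to 86.5%, and the longest one of 4 exons 5.27% to 34.9%. For Crybb2, the main transcript, of 5 exons, was at 23.4 and 23.4 FPKM in WT PBS and 105 and 94.8 FPKM in WT NMDA, and the transcript of 7 exons at 10.7 and 12.4 FPKM and at 24.5 and 34.4 FPKM. Some assignments differed between libraries of 1 group. In shPax6 NMDA, the Cryba4 transcript of 6 exons was listed at 0 and 3.98 FPKM and that of 5 exons at 5.27 and 0 FPKM in replicates 1 and 2, and the main Crybb3 transcript was at 13.5 and 1.84 FPKM. Transcripts of these genes overlap, so the division of reads among them is uncertain.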
